A study of Mus musculus with 3 samples.

Results

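The nuclear genes of mitochondrial complex I were followed across the cell classes of the retina in wild-type mice and in the rd10 model of retinitis pigmentosa. The members were all genes of the matrix whose symbol begins with Ndufa, Ndufb, Ndufc, Ndufs or Ndufv, with the assembly factors (Ndufaf) left out. This rule found 39 of 18545 genes. Of these, 37 are subunits of complex I, with 7 core subunits and 30 accessory subunits. The remaining 2, Ndufa4 and Ndufa4l2, carry the name of the family, but Ndufa4 is now counted with complex IV and Ndufa4l2 is its paralog, so both are described on their own.

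Complex I, or NADH:ubiquinone oxidoreductase, is the entry point of electrons from NADH into the respiratory chain and pumps protons across the inner mitochondrial membrane. Its matrix arm holds the flavin and the iron-sulfur clusters in core subunits encoded in the nucleus, while the core of its membrane arm is encoded in mitochondrial DNA, and the nuclear accessory subunits surround both arms. Photoreceptors and bipolar cells are known for a high demand for respiratory ATP, whereas Müller glia (MG) are held to draw more on glycolysis.

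Retinas of mice aged 8 weeks, reared in the dark, were dissociated with papain and made into droplet libraries, with 1 library for each of 3 groups. The WT library came from C57BL/6J wild-type females and males on the base chow. The rd10-vehicle library came from rd10 females on the same chow, and the rd10-TMB library from rd10 females whose chow held tamsulosin, metoprolol and bromocriptine (TMB). Mice of the rd10 line lose their rods through a point mutation of the rod phosphodiesterase gene Pde6b, and dark rearing slows that loss. The labels state 4 pooled mice for every library, but the study's methods name a smaller number for rd10. Since a group was a single pooled library, there was no replicate, no test and no p-value. The intervals given in parentheses are at 95% and cover counting error only, so they describe the libraries themselves. Since WT held both sexes and rd10 only females, comparisons with WT were also made with the 1750 WT cells that held Xist but lacked Y-linked UMIs. That setting selected WT cells on detected UMIs and left the rd10 cells as they were. Sex and the selection of cells therefore cannot be told apart in it.

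The libraries held 4478 (WT), 5952 (rd10-vehicle) and 4812 (rd10-TMB) cells, with medians of 3509.5, 4811.5 and 4772.5 unique molecular identifiers (UMIs) per cell, and pairs of libraries shared 7 to 10 cell barcodes. Of 11 classes compared, MG-like, rod-like, RBC-like (rod bipolar), ON cone bipolar-like (ON-CBC-like), OFF cone bipolar-like, cone-like, amacrine-like, endothelial-like and astrocyte-like cells were named from their markers, which were found at least 2-fold above the rest. Clusters 6 and 10 carried both bipolar and amacrine markers and kept their numbers, and the endothelial-like cluster also carried all 10 pericyte markers. Values are UMIs of a gene per 1000000 UMIs of the class (CPM), so a member's level is a share of the class's RNA, and fewer transcripts of a member cannot be told from more of the other transcripts.

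To show sequences around the starts of these genes, RefSeq windows of 300 bases (250 before and 50 after a listed transcription start, GRCm38.p6) were read for 32 of the 37 subunits. The windows were searched on both strands for 3 short motifs of factors long linked to respiratory chain genes: NRF-1 (core letters GCATGCGC), ETS factors such as GABPA (CCGGAAG) and YY1 (AAGATGGC). The YY1 letters stood in 7 of the 32 subunits (21.9%; Ndufa3, Ndufa9, Ndufb8, Ndufc1, Ndufs4, Ndufs6 and Ndufs7), against 3.19% of 27025 genes with a window. The NRF-1 letters stood in 3 (9.38%; Ndufa6, Ndufa8 and Ndufa11, against 3.05% of genes) and the ETS letters in 4 (12.5%; Ndufb6, Ndufb7, Ndufs3 and Ndufs8, against 9.93%). No window of the 32 was counted for more than 1 of the 3 motifs. A match is a run of letters and not a measured binding site. The windows of a gene from each set, chosen among members described further on, are given 5′ to 3′ on the strand of the gene, with the motif letters in capitals. The Ndufs7 window lies inside the locus given for that gene further on, since the locus as RefSeq draws it begins upstream of the start on which the window is set.
Ndufa6 (NRF-1 letters, chr15:82354242-82354541, minus strand): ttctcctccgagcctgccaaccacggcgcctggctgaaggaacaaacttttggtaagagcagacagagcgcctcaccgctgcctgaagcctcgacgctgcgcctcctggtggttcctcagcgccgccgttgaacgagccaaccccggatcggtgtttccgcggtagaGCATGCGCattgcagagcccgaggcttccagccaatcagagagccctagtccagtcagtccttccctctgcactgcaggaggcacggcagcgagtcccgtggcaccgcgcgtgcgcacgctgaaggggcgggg
Ndufs8 (ETS letters on the opposite strand, chr19:3912725-3913024, minus strand): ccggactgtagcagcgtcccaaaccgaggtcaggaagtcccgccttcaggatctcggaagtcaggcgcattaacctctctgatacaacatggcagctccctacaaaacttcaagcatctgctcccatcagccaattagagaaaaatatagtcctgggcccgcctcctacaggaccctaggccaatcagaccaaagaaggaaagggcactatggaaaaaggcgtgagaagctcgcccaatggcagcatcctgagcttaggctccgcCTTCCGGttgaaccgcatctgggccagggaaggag
Ndufs7 (YY1 letters, chr10:80249199-80249498, plus strand): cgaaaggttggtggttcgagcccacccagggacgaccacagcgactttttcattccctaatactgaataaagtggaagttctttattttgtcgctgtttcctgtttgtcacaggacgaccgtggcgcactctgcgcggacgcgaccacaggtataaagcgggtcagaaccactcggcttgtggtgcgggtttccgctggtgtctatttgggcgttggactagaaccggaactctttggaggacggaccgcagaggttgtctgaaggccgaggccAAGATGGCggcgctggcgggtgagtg

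The summed level of the 37 subunits differed between cell classes more than between libraries of a class. RBC-like cells had 11938, 11853 and 13408 CPM in WT, rd10-vehicle and rd10-TMB, and cluster 10 had 13398, 11033 and 13936 CPM. Cone-like cells had 10784, 10713 and 11438 CPM, and rod-like cells had 7818, 8526 and 9196 CPM. The order of classes therefore placed rods below cones and below all bipolar classes in each library. MG-like cells had 7065, 6957 and 7610.3 CPM, astrocyte-like cells 6805, 6019 and 6433 CPM, and endothelial-like cells 6752, 5618 and 5859 CPM. In each of the 3 libraries these non-neuronal classes lay below every neuronal class compared. Neighbouring classes from cluster 10 down to amacrine-like and rod-like cells overlapped in their ranges over libraries, rod-like and MG-like cells did not, and astrocyte-like and endothelial-like cells did. Of the small classes not compared between libraries, microglia-like cells had 4281, 3417 and 4036 CPM with only 6 WT cells.

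**Figure D1:**
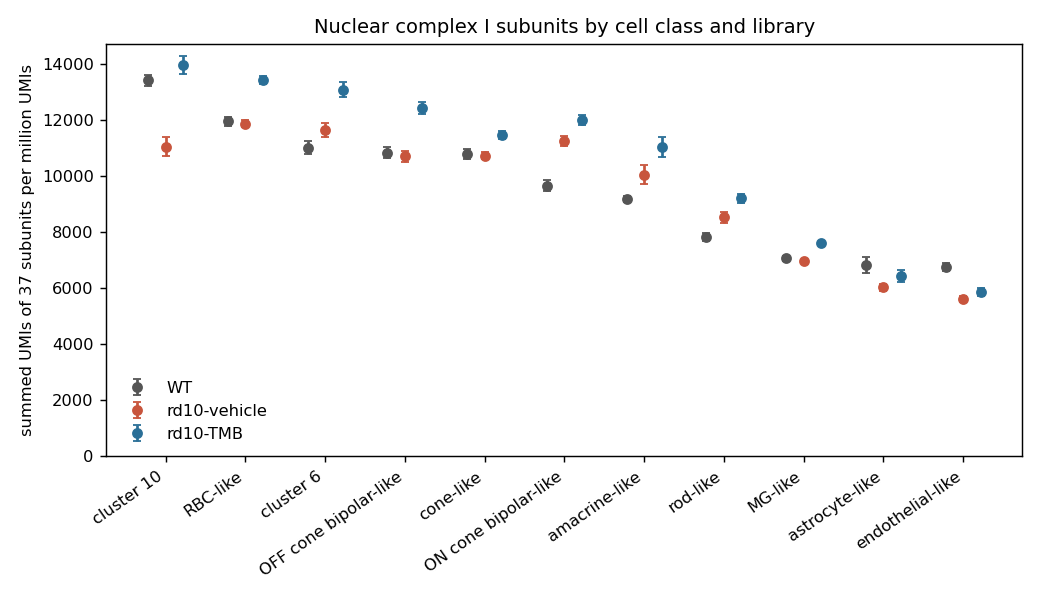
Summed UMIs of the 37 nuclear complex I subunits per 1000000 UMIs (y axis) in 11 cell classes (x axis) in the WT, rd10-vehicle and rd10-TMB libraries; points are libraries and bars are exact Poisson 95% intervals, which cover counting error only. In MG-like cells the values were 7065, 6957 and 7610.3 CPM, and in all 11 classes the rd10-TMB point lies above the rd10-vehicle point.

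Most members shared the class pattern of the sum, and some departed from it. The departure was measured as the gene's log2 level over its own mean across the 11 classes, less the median of the members in that class. It was -6.42 for Ndufa4l2 in RBC-like cells, -1.05 for Ndufa4 in astrocyte-like cells, 0.99 for Ndufa10 in rod-like cells and 0.94 for Ndufa8 in endothelial-like cells. Ndufb10 departed least, with 0.14.

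Ndufa10 (chromosome 1, 92439486 to 92473825), an accessory subunit with a nucleoside kinase fold, was high in photoreceptors. Its level was 262, 242 and 270 CPM in rod-like cells and 293, 287 and 271 CPM in cone-like cells. In RBC-like cells it was 212, 201 and 212 CPM, and in MG-like cells 90.1, 87.9 and 83.8 CPM. Photoreceptors lay above the bipolar and glial values in each library. Ndufa8 (chromosome 2, 36036324 to 36049338), an accessory subunit of the membrane arm, stood at 266, 200 and 200 CPM in endothelial-like cells and at 128, 109 and 108 CPM in rod-like cells, so its order of these classes was the reverse of that of the summed subunits.

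Ndufa4 (chromosome 6, 11900372 to 11907450), the member counted with complex IV, was highest in RBC-like cells. There it had 2287, 1860 and 2234 CPM, against 1392, 1432 and 1659 CPM in cone-like and 1025, 1298 and 1409 CPM in rod-like cells. MG-like cells had 358, 402 and 462 CPM and astrocyte-like cells 309, 258 and 296 CPM. In each library RBC-like cells held the highest and astrocyte-like cells the lowest of the 11 levels.

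Ndufa4l2 (chromosome 10, 127509274 to 127517154), known as a target of hypoxia-inducible factor and as a pericyte transcript, was close to absent from neurons. It had 0 to 3 UMIs in each library of the 8 neuronal classes. Pericyte-like cells, of which there were 20 to 25 per library, had 1601, 887 and 1327 CPM from 106, 83 and 97 UMIs. Endothelial-like cells, which also carried pericyte markers, had 236, 377 and 435 CPM. MG-like cells had 7.53, 8.74 and 9.95 CPM from 25, 194 and 167 UMIs. Astrocyte-like cells had 41 UMIs in WT, where the class had 20 cells, 16 in rd10-vehicle and 1 in rd10-TMB.

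**Figure D2:**
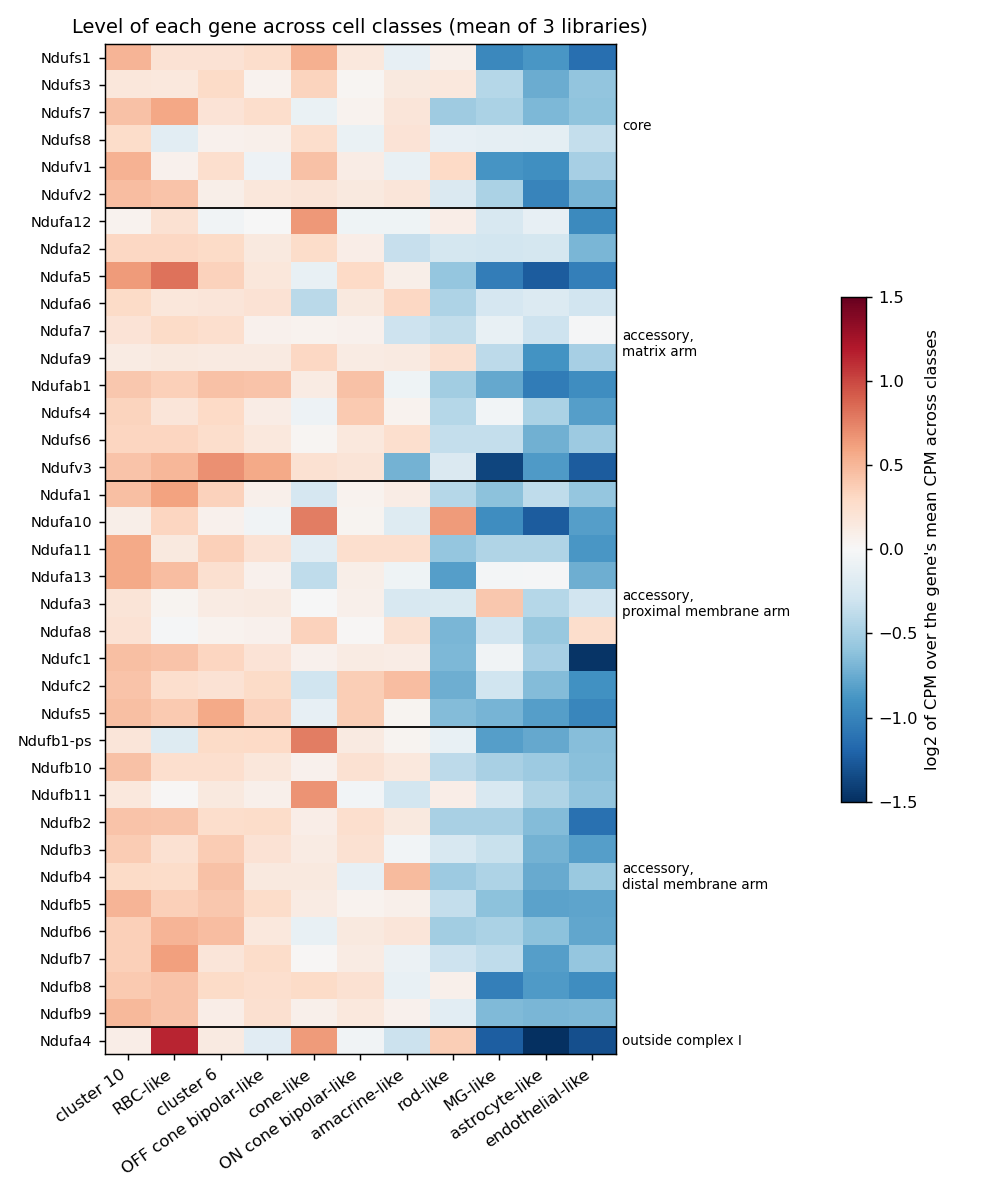
Level of 36 of the 37 subunits and of Ndufa4 (rows, grouped by place in the complex) in 11 cell classes (columns), as log2 of the mean CPM of the 3 libraries over the gene's mean across classes; red is above and blue below that mean, and the scale stops at 1.5 to either side. Most rows are red in bipolar and cone-like cells and blue in MG-like, astrocyte-like and endothelial-like cells, while Ndufa10 is high in rod-like and cone-like cells.

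The libraries from rd10 mice with and without the drug mixture were compared in each class by the log2 ratio between rd10-TMB and rd10-vehicle, with 1 UMI added per library, for genes with at least 100 UMIs over both. Treatment, animals and preparation cannot be told apart in this ratio. In MG-like cells, the largest class, the summed level of the 37 subunits was 1.09-fold (1.09 to 1.10) that of rd10-vehicle. Of the 37, 31 were higher in rd10-TMB, with a median log2 ratio of 0.11, while 44.2% of the 11890 genes tested in MG-like cells were higher, with a median of -0.02. At least 1.2-fold higher were 4 of the 37, against 5.28% of all genes. The tilt of the subunits toward rd10-TMB in MG-like cells was thus made of many small differences of the same sign. It was also seen with each of 11 alternative settings, where the median ran from 0.10 to 0.14.

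Bipolar and photoreceptor classes tilted the same way. In RBC-like cells 35 of 37 subunits were higher in rd10-TMB (median 0.14; 48.0% of all genes higher), 7 of them at least 1.2-fold, against 7.41% of all genes. In OFF cone bipolar-like cells it was 36 of 37 (0.23; 52.2%), with 14 at least 1.2-fold against 12.1%, and in ON cone bipolar-like cells 26 of 37 (0.08; 50.1%), with 4 at least 1.2-fold against 10.2%. Cone-like cells had 29 of 37 higher (0.11; 53.4%), with 5 at least 1.2-fold against 11.2%, and rod-like cells 27 of 37 (0.11; 54.8%), with 6 at least 1.2-fold against 13.9%. The shares of members past 1.2-fold were near those of all genes in rod-like, cone-like and ON cone bipolar-like cells. Thinning each cell to 1000 UMIs left 21 of 36 members higher in rod-like and 21 of 36 in cone-like cells, fewer than without thinning, with medians of 0.04 and 0.09, and gave a median of 0.11 in OFF cone bipolar-like cells, and a mean taken over cells gave 0.04 for ON cone bipolar-like cells and 0.07 for cone-like cells.

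The remaining classes held fewer cells. In cluster 6, 30 of 37 subunits were higher in rd10-TMB (0.14; 51.3% of all genes), and in cluster 10, 33 of 36 (0.31; 53.5%). Of the other genes with transcripts of up to 1000 nt, 58.7% were higher in cluster 6 and 68.2% in cluster 10. In amacrine-like cells 31 subunits had enough UMIs and 23 were higher (0.15; 54.3%). That class joined clusters 5 and 9, which held 43 and 62 cells in rd10-vehicle and 35 and 48 in rd10-TMB. In endothelial-like cells 25 of 36 (0.05; 48.7%) and in astrocyte-like cells 22 of 35 (0.08; 48.4%) were higher. Every one of the 11 classes thus had a positive median of the subunits, and none of the settings tried turned its sign. Thinning moved the median in cluster 10 to 0.16 and in cluster 6 to 0.28.

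Rod transcripts, which free RNA can carry into other droplets, moved with this comparison. Of the 12 on the list, all 10 tested in RBC-like and all 9 tested in ON cone bipolar-like cells were higher in the rd10-TMB library, and 8 of 12 in MG-like cells. Their summed level was 611 and 1003 CPM in RBC-like, 3056 and 4182 CPM in ON cone bipolar-like, 1592 and 1710 CPM in MG-like and 307 and 880 CPM in astrocyte-like cells of the rd10-vehicle and rd10-TMB libraries. The summed level of complex I subunits in rod-like cells was itself below that of RBC-like and ON cone bipolar-like cells and above that of MG-like cells in both libraries. The mitochondrial share of UMIs was 6.09 and 6.36% in MG-like and 7.14 and 7.14% in RBC-like cells, and the median UMIs per cell 8593.5 and 9454.5 in MG-like and 3638 and 4310 in RBC-like cells. The part of free RNA and of depth in the ratios was not tested further than by the settings named.

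**Figure D3:**
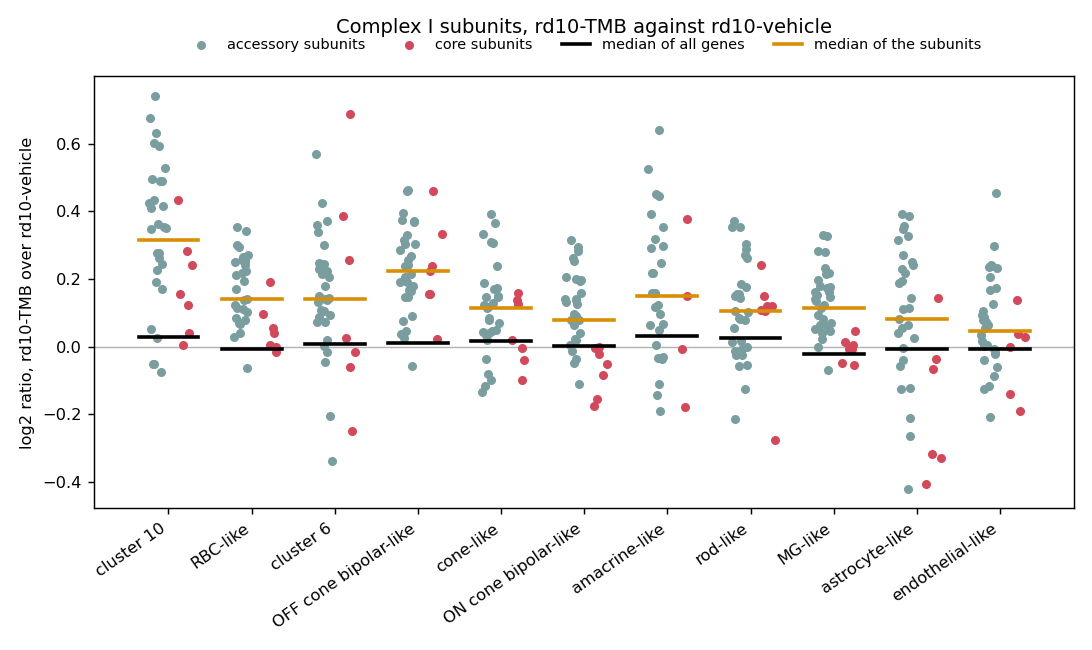
Log2 ratio between rd10-TMB and rd10-vehicle (y axis) for each nuclear complex I subunit with at least 100 UMIs over both libraries, in 11 cell classes (x axis); red points are core and grey-green points accessory subunits, with the median of the subunits (ochre line) and of all genes tested (black line). The ochre line lies above the black line in each class, by most in cluster 10 (0.31 against 0.03), and core points lie at or below 0 in ON cone bipolar-like cells. In cluster 10 the other genes with transcripts of up to 1000 nt, not drawn, had a median of 0.12.

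Core and accessory subunits of the nuclear set did not share the tilt equally. In ON cone bipolar-like cells 0 of 7 core subunits were higher in rd10-TMB (median -0.05), against 26 of 30 accessory subunits (0.11). In MG-like cells the counts were 3 of 7 (-0.01) and 28 of 30 (0.14), and in RBC-like cells 6 of 7 (0.04) and 29 of 30 (0.20). The gap was absent in OFF cone bipolar-like cells, with 7 of 7 (0.23) and 29 of 30 (0.23), and in rod-like cells, with 6 of 7 (0.12) and 21 of 30 (0.09). Thinning to 1000 UMIs brought the RBC-like medians to 0.12 for core and 0.15 for accessory subunits, so the gap there was small in thinned cells. The sign of the core median in MG-like cells changed with the scaling, up to 0.03 with thinned cells, while that in ON cone bipolar-like cells ran from -0.12 to -0.01 and stayed negative. With 7 core genes and no replicate, no test of the gap was possible.

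The accessory subunits of the matrix arm shared a direction in several classes. All 10 were higher in rd10-TMB in MG-like (median 0.14), RBC-like (0.23), ON cone bipolar-like (0.14) and OFF cone bipolar-like cells (0.28), and 9 of 10 in cone-like cells (0.15), while rod-like cells had 6 of 10 (0.08). The 9 accessory subunits of the proximal membrane arm had 8 higher in MG-like (0.16), 8 in RBC-like (0.22) and 9 in ON cone bipolar-like cells (0.10). Of the 11 in the distal membrane arm, 10 were higher in MG-like (0.11), 11 in RBC-like (0.11) and 7 in ON cone bipolar-like cells (0.02). In the ON cone bipolar-like class the core thus lay on the low side and the accessory subunits of the matrix and proximal arms on the high side. The distal arm lay between them.

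The core subunits described here differed in MG-like cells between rd10-TMB and rd10-vehicle by less than their counting intervals. Ndufv1 (chromosome 19, 4007499 to 4012755), which binds NADH and the flavin, had 70.8, 76.6 and 79.0 CPM in WT, rd10-vehicle and rd10-TMB, and Ndufv2 (chromosome 17, 66078795 to 66101559) had 143, 161 and 163 CPM. Ndufs1 (chromosome 1, 63143592 to 63176822), the largest iron-sulfur subunit, had 38.3, 37.8 and 36.4 CPM, and Ndufs3 (chromosome 2, 90894627 to 90904721) had 90.4, 101 and 100.5 CPM. Ndufs7 (chromosome 10, 80249105 to 80256794) and Ndufs8 (chromosome 19, 3908863 to 3912774), which hold the iron-sulfur clusters nearest to ubiquinone, had 180.4, 186 and 187 CPM and 105, 114 and 113 CPM. Their log2 ratios in this drug comparison were 0.04 for Ndufv1, 0.01 for Ndufv2, -0.05 for Ndufs1, -0.01 for Ndufs3 and Ndufs8, and 0.01 for Ndufs7, and each interval included 0. The widest of these intervals was that of Ndufs1 (-0.21 to 0.10), which had the fewest UMIs.

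The 3 highest ratios in MG-like cells among members with at least 200 UMIs were those of accessory subunits. Ndufa1 (chromosome X, 37187588 to 37191238), a short membrane subunit, had 126, 115 and 145 CPM in WT, rd10-vehicle and rd10-TMB, with a log2 ratio of 0.33 for the drug comparison (0.25 to 0.41). Ndufa6 (chromosome 15, 82350139 to 82354291), an accessory subunit of the matrix arm whose window with the NRF-1 letters is given above, had 219, 184 and 231 CPM (0.33; 0.26 to 0.39), and Ndufb4 (chromosome 16, 37647602 to 37654368) had 194, 166 and 202 CPM (0.28; 0.22 to 0.35). These members were chosen by this ratio, so the order of the libraries in them is a description. Ndufa10 was lowest with -0.07 (-0.17 to 0.03), followed by Ndufs1. Ndufb11 (chromosome X, 20615326 to 20617619), the other X-linked member, had 327, 316 and 348 CPM and a ratio of 0.14 (0.09 to 0.19). Ndufa4 had a ratio of 0.20 (0.16 to 0.25) in MG-like cells and was higher in rd10-TMB in 11 of 11 classes, and the ratio of Ndufa4l2 was 0.19 (-0.12 to 0.49).

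In RBC-like cells the highest ratios belonged to Ndufb3, Ndufa5 and Ndufa1. Ndufb3 (chromosome 1, 58586397 to 58595964) had 317, 284 and 363 CPM (0.35; 0.21 to 0.49), Ndufa5 (chromosome 6, 24518662 to 24527690) had 567, 474 and 601 CPM (0.34; 0.23 to 0.45), and Ndufa1 had 293, 269 and 331 CPM (0.30; 0.16 to 0.44). Ndufa8 was lowest, with 167, 195 and 187 CPM (-0.06; -0.24 to 0.12), followed by Ndufv1 (-0.02; -0.22 to 0.19) and Ndufs3 (0.00; -0.20 to 0.20), whose intervals included 0.

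Rod-like cells had few UMIs per gene and wider intervals. The highest ratios there were those of Ndufa13 (chromosome 8, 69894163 to 69902558), also known as GRIM-19, with 222, 241 and 312 CPM (0.37; 0.13 to 0.62), Ndufs6 with 141, 139 and 179 CPM (0.35; 0.03 to 0.69) and Ndufb7 with 234, 222 and 284 CPM (0.35; 0.10 to 0.62). Ndufs8 was lowest (-0.27; -0.64 to 0.09), with 87.9, 135 and 112 CPM, then Ndufa9 (-0.21; -0.62 to 0.20) and Ndufb10 (-0.13; -0.36 to 0.11). Ndufa13 shares its strand and part of its locus with Yjefn3, so its UMIs are less certain than those of the other members.

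In ON cone bipolar-like cells Ndufa12 led, with 213, 206 and 257 CPM (0.31; 0.08 to 0.55), followed by Ndufa13 with 430, 463 and 569 CPM (0.30; 0.14 to 0.45) and Ndufb2 with 238, 238 and 290 CPM (0.28; 0.07 to 0.50). Among the lowest were Ndufs8 with 89.5, 132 and 118 CPM (-0.15; -0.47 to 0.16) and Ndufb6 with 114, 172 and 159 CPM (-0.11; -0.38 to 0.16).

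Cone-like cells had their highest ratios in the distal membrane arm. Ndufb4 had 305, 238 and 312 CPM (0.39; 0.23 to 0.55), Ndufb2 had 233, 199 and 257 CPM (0.37; 0.19 to 0.54) and Ndufb6 had 114, 115 and 145 CPM (0.33; 0.10 to 0.57). The same arm also held the lowest, with Ndufb5 at 326, 353 and 321 CPM (-0.13; -0.28 to 0.01) and Ndufb11 at 657, 634 and 585 CPM (-0.12; -0.22 to -0.01). Ndufa9 of the matrix arm (-0.10; -0.36 to 0.16) and the core subunit Ndufs1 (-0.10) tied for the next place. The distal arm thus spread to both sides of 0 in cone-like cells, with 8 of 11 higher and a median of 0.05.

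Of the 31 subunits with enough UMIs in all 11 classes, 6 were higher in rd10-TMB in every class, namely Ndufa6, Ndufa13, Ndufab1, Ndufb2, Ndufb4 and Ndufs5. Of all 844 genes tested in the 11 classes 66 were (7.82%), among them Ndufa4 and 30 of 80 cytosolic ribosomal protein genes. Ndufab1 (chromosome 7, 122086815 to 122101848), the mitochondrial acyl carrier protein, ran from 0.05 in astrocyte-like cells to 0.36 in cluster 10, and Ndufs5 from 0.01 in amacrine-like to 0.30 in rod-like cells. At the other end, Ndufs1 was higher in 4 of 8 classes, Ndufs8 in 5 of 10 and Ndufs3 in 6 of 11, and these core subunits, with the accessory Ndufa10 (6 of 10), had the 4 lowest shares of classes.

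Core subunits have longer annotated transcripts at the median than accessory ones, and length was read beside the ratios. Over the 36 subunits with a length in GENCODE vM21, Spearman's rho of the median coding transcript length and the drug ratio was -0.38 in MG-like and -0.37 in RBC-like cells, -0.27 in OFF cone bipolar-like, -0.08 in cone-like, 0.01 in rod-like and 0.04 in ON cone bipolar-like cells. The length is the median over a gene's annotated coding transcripts and need not be that of the transcript expressed. It was 651 nt for Ndufs1, the largest iron-sulfur subunit, and 2413 nt for Ndufb2. The subunits share their libraries, and the rho values are a description across genes. Of the other genes of up to 1000 nt, the share higher in rd10-TMB ran from 45.2% in MG-like cells to 68.2% in cluster 10. Beside these stood 27 of 29 subunits of that length in MG-like cells (median 0.14) and 27 of 29 in cluster 10 (0.35). In OFF cone bipolar-like cells it was 59.8% beside 29 of 29 (0.24), and in amacrine-like cells 58.6% beside 20 of 26 (0.16). The part of length in the ratios and in the gap between core and accessory subunits was not tested.

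The rd10 retina without the drugs was compared with the wild type by rd10-vehicle against WT. MG-like cells showed no common direction, with 16 of 37 subunits higher in rd10-vehicle (median -0.02; 43.9% of all genes higher, median -0.05), and the sign of the median changed with the setting. RBC-like cells had 17 of 37 (-0.01; 52.0%), cone-like cells 18 of 37 (-0.02; 42.7%) and OFF cone bipolar-like cells 18 of 37 (0.00; 51.1%). In amacrine-like cells, where clusters 5 and 9 held 461 and 295 cells in WT but 43 and 62 in rd10-vehicle, 25 of 37 were higher (0.13; 51.7%), in cluster 6, 20 of 37 (0.05; 53.8%), and in rod-like cells 22 of 37 (0.12; 44.9%), where keeping cells with at least 1000 detected genes gave -0.02 and WT cells that held Xist but lacked Y-linked UMIs gave 0.23. Transcript length moved with the rod-like ratios. Of the other genes with transcripts of up to 1000 nt, 59.1% were higher (median 0.08), beside 16 of 29 subunits of that length (0.03), and the part of length was not tested. Over the settings the amacrine-like median ran from 0.06 to 0.32 and that of cluster 6 from 0.02 to 0.17.

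ON cone bipolar-like cells stood apart in this comparison. There 32 of 37 subunits were higher in rd10-vehicle than in WT (median 0.21; 51.3% of all genes), 16 of them at least 1.2-fold, against 17.8% of all genes. The summed level was 9652 CPM in WT and 11236 CPM in rd10-vehicle. All 7 core subunits were higher (0.28), led by Ndufs8 (0.55; 0.19 to 0.93), and the 3 highest members were Ndufb6 (0.59; 0.28 to 0.92), Ndufs8 and Ndufb10 with 342, 464 and 470 CPM (0.44; 0.25 to 0.63). The lowest were Ndufa9 (-0.25; -0.65 to 0.15), Ndufa12 (-0.05; -0.30 to 0.21) and Ndufa10 (-0.03; -0.32 to 0.26). The median was 0.07 once cells above 10% mitochondrial UMIs were left out and 0.42 as a mean over cells. Short transcripts in general tilted the same way here: 65.6% of the other genes of up to 1000 nt were higher (median 0.10) and 38.6% of those over 2000 nt, and 27 of the 29 subunits of up to 1000 nt were higher (0.28). The part of length was not tested. Rod transcripts went the other way in this class, from 4543 CPM in WT to 3056 CPM in rd10-vehicle, with 0 of 9 higher, and their part in the difference was not tested.

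In 3 classes most members were lower in rd10-vehicle than in WT. Cluster 10 had 6 of 37 higher (median -0.25; 52.3% of all genes), endothelial-like cells 6 of 37 (-0.23; 50.4%) and astrocyte-like cells 7 of 35 (-0.20; 39.6%). Endothelial-like cells also had a mitochondrial share of UMIs of 5.44% in WT and 3.68% in rd10-vehicle. Leaving out cells with a share over 10% moved the endothelial-like median to -0.11, and thinning moved that of cluster 10 to -0.08. The WT library held 20 astrocyte-like cells, and all-gene ratios in that class were also low, with a median of -0.09. With median-of-ratios size factors the astrocyte-like median of the subunits was -0.12. Rod transcripts were lower as well, from 1295 CPM in WT to 732 CPM in rd10-vehicle in cluster 10 (0 of 6 higher), from 969.8 to 543 CPM in endothelial-like cells (0 of 6) and from 531 to 307 CPM in astrocyte-like cells (0 of 1), and their part in the lower subunit values was not tested.

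Within MG-like cells, core and accessory subunits again parted between rd10-vehicle and WT. Of the core, 6 of 7 were higher in rd10-vehicle (0.12), against 10 of 30 accessory subunits (-0.04, a sign that changed with the scaling). Against WT cells that held Xist but lacked Y-linked UMIs the core median was 0.24. Among the highest ratios were those of Ndufv3 with 115, 132 and 138 CPM (0.19; 0.04 to 0.35) and Ndufv2 (0.17; 0.04 to 0.32). The lowest were Ndufc2 with 400.3, 334 and 371 CPM (-0.26; -0.34 to -0.17), Ndufb3 with 234, 195 and 227 CPM (-0.26; -0.37 to -0.15) and Ndufa6 (-0.25; -0.36 to -0.13). The rod transcripts were 1214 CPM in WT and 1592 CPM in rd10-vehicle in MG-like cells, which was 2.15% and 2.99% of their level in rod-like cells. Their part in the ratios was not tested.

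**Figure D4:**
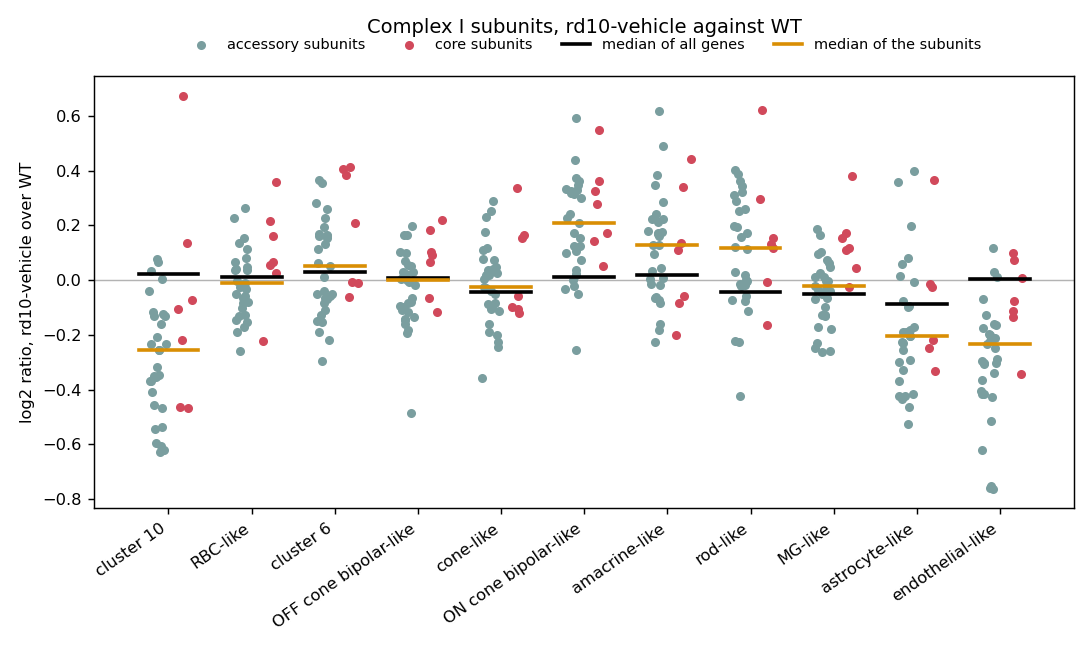
Log2 ratio of rd10-vehicle to WT (y axis) for each nuclear complex I subunit with at least 100 UMIs over both libraries, in 11 cell classes (x axis), with core (red) and accessory (grey-green) subunits, the median of the subunits (ochre line) and the median of all genes tested (black line). The ochre line is highest in ON cone bipolar-like cells, at 0.21, and lowest in cluster 10, at -0.25, where the black lines are at 0.01 and 0.02.

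The rd10-TMB library was also read against WT, side by side with the above, since this comparison shares the WT library with the preceding one and the rd10-TMB library with the drug comparison. In MG-like cells 32 of 37 subunits were higher in rd10-TMB than in WT (0.10; 41.2% of all genes), in rod-like cells 33 (0.24; 45.3%), in RBC-like cells 35 (0.14; 51.7%), in ON cone bipolar-like cells 35 (0.31; 50.5%), in OFF cone bipolar-like cells 34 (0.22; 53.6%) and in cone-like cells 26 (0.06; 46.5%). Amacrine-like cells, whose mix of clusters 5 and 9 also differed from WT (35 and 48 cells in rd10-TMB), had 33 of 37 (0.24; 56.7%), cluster 6 had 32 of 37 (0.24; 56.2%) and cluster 10 had 23 of 37 (0.04; 52.8%). Endothelial-like cells had 7 of 36 higher (-0.22; 50.1%) and astrocyte-like cells 8 of 27 (-0.08; 41.0%), where the median ran from -0.18 to -0.0019 over the settings. Over the settings MG-like cells had medians of 0.08 to 0.17 and rod-like cells of 0.13 to 0.32, and the median ran from 0.20 to 0.47 in ON cone bipolar-like and 0.16 to 0.46 in amacrine-like cells, from 0.19 to 0.42 in cluster 6 and from 0.01 to 0.13 in cluster 10. Restricting WT to cells that held Xist but lacked Y-linked UMIs gave a median of 0.02 in cone-like cells, and leaving out cells above 10% mitochondrial UMIs gave -0.04 in endothelial-like cells. Of the other genes with transcripts of up to 1000 nt, the share higher ran from 49.5% in astrocyte-like to 66.8% in amacrine-like cells. It was 65.6% in ON cone bipolar-like, 63.0% in RBC-like and 61.0% in OFF cone bipolar-like cells, and 51.4% in MG-like cells. The part of length was not tested.

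The subunits of complex I encoded in mitochondrial DNA had medians opposite in sign to the nuclear ones in every neuronal class compared. They shared the nuclear direction in MG-like, endothelial-like and astrocyte-like cells. Of these 7, which form the core of the membrane arm, 0 were higher under rd10-TMB in OFF cone bipolar-like cells (median -0.13), 1 in RBC-like (-0.09) and 1 in rod-like cells (-0.10), while the nuclear subunits of the same classes had medians of 0.23, 0.14 and 0.11. The mitochondrial medians were -0.31 in cluster 10 (1 of 6 tested higher), -0.22 in amacrine-like cells (0 of 6) and -0.12 in cluster 6 (0 of 6). Cone-like cells had -0.05 (2 of 7) and ON cone bipolar-like cells -0.02 (3 of 7). The sign changed to 0.02 in ON cone bipolar-like cells as a mean over cells and to 0.03 in thinned amacrine-like cells. In MG-like cells 6 of 7 were higher (0.05), as in endothelial-like (0.11) and astrocyte-like cells (0.11), where the nuclear medians were 0.11, 0.05 and 0.08 in that order. Their summed level in RBC-like cells was 18123, 15514 and 14433 CPM in WT, rd10-vehicle and rd10-TMB, against 11938, 11853 and 13408 CPM for the nuclear subunits. In RBC-like cells rd10-TMB thus held the highest nuclear and the lowest mitochondrial level. In MG-like cells the mitochondrial set had 19568, 17589 and 18514 CPM, with WT highest and rd10-vehicle lowest, but the median log2 ratio of rd10-vehicle to WT there, -0.10, was 0.06 against WT cells that held Xist but lacked Y-linked UMIs and 0.05 in cells with at most 10% mitochondrial UMIs. Once cells with more than 10% mitochondrial UMIs were left out, the mitochondrial median was -0.0027 in rod-like and -0.05 in OFF cone bipolar-like cells, and with thinned cells it was -0.01 in RBC-like and -0.19 in rod-like cells. Leaving out cells by mitochondrial UMIs selects on the quantity compared here.

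Among the other lists of the respiratory chain, complex IV tilted most toward rd10-TMB. It had 9 of 10 genes higher in MG-like (0.21), 10 of 10 in rod-like (0.30), 10 of 10 in RBC-like (0.25) and 9 of 10 in cone-like cells (0.21). Complex V had 11 of 17 (0.05), 12 of 17 (0.11), 15 of 17 (0.08) and 13 of 17 (0.11) in the same classes, and complex III 6 of 9 (0.14), 5 of 9 (0.11), 8 of 9 (0.16) and 8 of 9 (0.05). Complex II, which bypasses complex I, had 1 of 4 in MG-like cells (-0.03) and 3 of 4 in RBC-like cells (0.07). The complex I assembly factors, which build the complex without being part of it, had 7 of 18 higher in MG-like (-0.05), 7 of 12 in RBC-like (0.02) and 7 of 12 in cone-like cells (0.09). The regulators of mitochondrial biogenesis had 5 of 12 (-0.02) and the other NADH dehydrogenases and shuttles 1 of 12 (-0.07) in MG-like cells. Cytosolic ribosomal protein genes, which have no part in respiration, had 70 of 82 higher in MG-like (0.13) and 78 of 81 in rod-like cells (0.20), so a tilt of this size in MG-like cells was not particular to the respiratory chain.

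**Figure D5:**
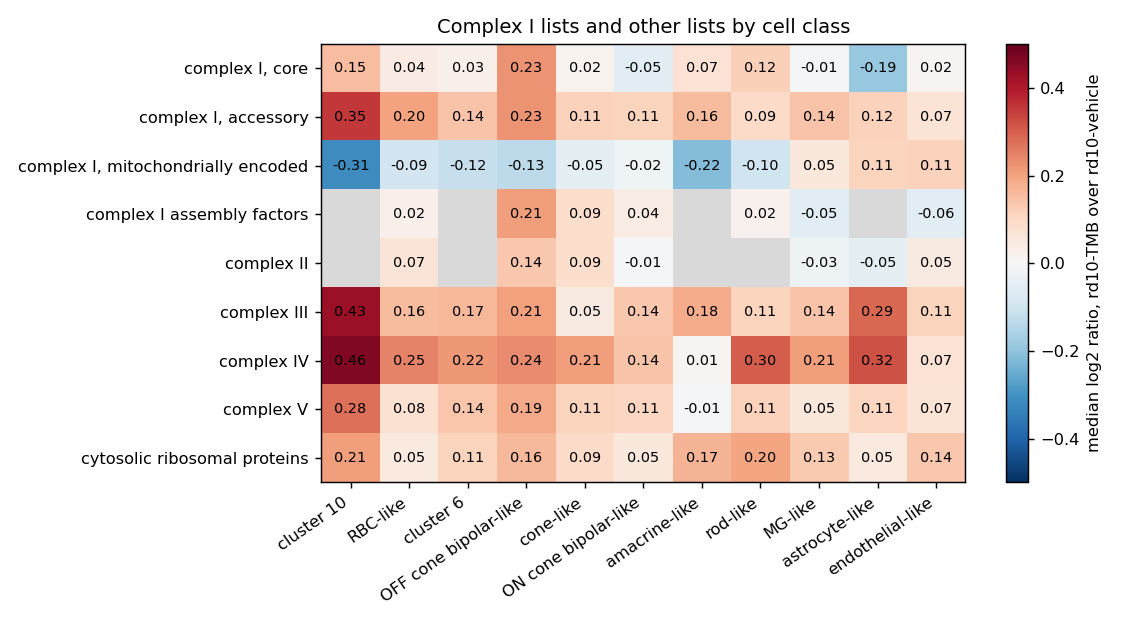
Median log2 ratio between rd10-TMB and rd10-vehicle (colour and printed value) for lists of genes (rows) in 11 cell classes (columns); lists with fewer than 4 genes tested in a class are grey. The accessory subunits of complex I are positive in all 11 classes, the core subunits are at -0.05 in ON cone bipolar-like and -0.19 in astrocyte-like cells, and the mitochondrially encoded subunits run from -0.31 in cluster 10 to 0.11 in endothelial-like and astrocyte-like cells.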

How the data were processed

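Per the labels and the study's methods, reads of 10x v3 libraries were aligned to mm10 with Cell Ranger 6.0.1, doublets were removed before deposit, and cells with at least 500 detected genes were kept and clustered with Seurat 3.2.2. The authors deposited natural log values of 1 plus a gene's UMIs after scaling every cell to 10000, with the total UMI count, the library and a cluster number of each cell. All 32620606 entries were turned back into UMI counts with the cell's total, and 100% were whole within 0.001 UMI; for all 15242 cells their sum equalled the total that was deposited. No further filter on cells and no doublet caller was applied. Depth was 18882951, 37002532 and 29192530 UMIs in WT, rd10-vehicle and rd10-TMB.

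Classes were named from 126 marker entries (125 in the matrix), where at least 3 markers had to be 2-fold above the rest and at 20 CPM or more. The OFF cone bipolar-like class joined clusters 7 and 8, and cluster 7 also carried 4 ON against 3 OFF markers. UMIs were summed per class and library. Levels carry exact Poisson intervals and ratios exact conditional intervals, at 95%, for counting error only. The scripts, written in Python 3.11.15 with numpy 2.4.6 and scipy 1.17.1, were tested on simulated counts.

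The members and lists were chosen with earlier results of these data known. Values per library are given for the core subunits, Ndufa4, Ndufa4l2, Ndufa1 and Ndufb11 in MG-like cells, for the 3 highest and 3 lowest ratios among members with at least 200 UMIs in the 5 classes described singly, and for the 5 members farthest from the median pattern over classes with at least 100 cells; Ndufb10, Ndufab1 and Ndufs5 were named after their values were seen. An item that these rules select is not reported here and has no row in the heat map. Coordinates are those of RefSeq (GRCm38), which gave none for Ndufb1-ps. The alternatives were other scalings, a mean over cells, a pseudocount of 0.1 UMI, count minimums of 20 and 500 UMIs, cells with 1000 genes or with a mitochondrial share of at most 10%, dropping the deepest 5% of cells, thinning to 1000 UMIs, restricting WT to cells that held Xist but lacked Y-linked UMIs, and adding Ndufa4 and Ndufa4l2; the same settings were applied to the core, accessory and mitochondrially encoded subunits after their values were seen.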

Additional observations from a re-analysis of the deposited data

Results flagged for a closer look

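The difference between rd10-vehicle and WT took opposite directions in different cell classes. The median log2 ratio of the nuclear complex I subunits was 0.21 in ON cone bipolar-like cells, where 32 of 37 members were higher in rd10-vehicle. It was -0.25 in cluster 10, -0.23 in endothelial-like cells and -0.20 in astrocyte-like cells, where 31 of 37, 31 of 37 and 28 of 35 members were lower. At least 80% of the members shared the direction in each of these 4 classes. With 1 library per group the difference between the classes was not tested. Cells per library differed between the groups in cluster 10 (239 in WT and 107 in rd10-vehicle) and in the astrocyte-like class (20 and 88), and the part of this in the ratios was not tested.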

How the results depend on the processing

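For rd10-TMB over rd10-vehicle the median of the subunits kept its sign in all 11 classes under each alternative that gave a value, 115 values in all. It also did so for rd10-TMB over WT. For rd10-vehicle over WT the sign changed in 4 of 11 classes (MG-like, rod-like, cone-like and OFF cone bipolar-like cells). A count was called moved past 1.5 times.

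For rd10-TMB over rd10-vehicle, a minimum of 500 UMIs left 11 of 17 in rod-like, 22 of 23 in OFF cone bipolar-like, 9 of 13 in endothelial-like cells and 14 of 15 in cluster 6, and thinning left 21 of 29 in OFF cone bipolar-like cells, 17 of 19 in cluster 6 and 9 of 11 in cluster 10, since fewer members passed the minimum. For rd10-vehicle over WT, the 500 UMI minimum gave 14 of 21 in rod-like, 10 of 22 in OFF cone bipolar-like, 12 of 19 in cluster 6, 3 of 22 in cluster 10 and 1 of 18 in endothelial-like cells, thinning gave 13 of 20 in cluster 6, leaving out the cells with the most UMIs gave 3 of 36 in endothelial-like cells, and median-of-ratios scaling gave 25 of 37 in MG-like and 11 of 35 in astrocyte-like cells. For rd10-TMB over WT, the 500 UMI minimum gave 21 of 24 in OFF cone bipolar-like, 18 of 19 in cluster 6 and 3 of 12 in endothelial-like cells, thinning gave 20 of 26 in OFF cone bipolar-like cells and 18 of 19 in cluster 6, and 13 of 27 astrocyte-like members were higher under median-of-ratios scaling. In endothelial-like cells 14 of 36 were higher at a mitochondrial share of 10% or less and 11 of 36 against WT cells that held Xist but lacked Y-linked UMIs. Where the number of members tested stayed the same, the cause was not tested.

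Intervals cover counting error only, and the spread between animals is unknown. No paired analysis was possible because each group had 1 library, so no replicate was left out either. Depth limits the number of members tested, which was 31 in amacrine-like cells for rd10-TMB over rd10-vehicle and 27 in astrocyte-like cells for rd10-TMB over WT.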
